A study of Mus musculus with 2 samples.

Results

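The genes described here encode the subunits, activators and assembly factors of the proteasome, and were chosen by symbol alone. All 51 protein-coding genes of the mouse whose symbol begins with Psma to Psmg followed by a number were taken, of 21486 protein-coding genes measured. They comprise 3 inducible and 1 thymic beta-ring gene, 7 constitutive beta-ring and 7 constitutive alpha-ring genes, 1 testis alpha gene and 6 base ATPases. The other members are 14 further genes of the regulatory particle, 5 activators, 1 inhibitor and 4 assembly chaperones. Psmc3ip, a meiotic recombination factor, and Psme3ip1 matched by symbol and are no subunits. The series measured H3K4me1, the single methylation of lysine 4 of histone H3, by ChIP-seq in E14TG2a.4 cells, an established male embryonic stem cell line of mouse strain 129/Ola. There were 2 biological replicates, which form 1 group. The labels name no treatment, mutation or comparison line, so every comparison below is between genes and not between conditions.

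Proteasomes are barrel-shaped proteases that degrade ubiquitin-tagged proteins. Their core is built of alpha and beta rings, and 3 of the beta subunits carry the protein-cutting sites. Interferon and immune cells replace these by inducible subunits to form the immunoproteasome, which favours peptides for presentation on MHC class I, and cortical thymic epithelium uses a catalytic subunit of its own, Psmb11. H3K4me1 is known from enhancers and from the shoulders of active promoters, where the nucleosomes next to the start site tend to carry trimethylation in its place.

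The mark lay across the transcription start site (TSS) of the inducible genes Psmb8 and Psmb10 and of the thymic gene Psmb11. At the constitutive catalytic genes it flanked an unmarked start, at Psmb5 with peaks in the 2 kb upstream in replicate 1 only. The stretches of 250 bases upstream of 6 of these starts are printed because they are the promoters over which this difference was seen. They come from the RefSeq promoter table of GRCm38.p6, the mm10 build of the peak lists, and run 5′ to 3′ on the strand of the gene. The table's start is the 5′ end of the gene record for all but Psmb6, where it lies 33 bp inside the record. Psmb8 is at chr17:34197945-34198194 (plus), Psmb9 at chr17:34187331-34187580 (minus), Psmb10 at chr8:105938393-105938642 (minus) and Psmb11 at chr14:54625060-54625309 (plus). Psmb5 is at chr14:54617996-54618245 (minus) and Psmb6 at chr11:70525107-70525356 (plus). Capitals mark matches, on either strand, to any of the 7 motifs searched, which are named with the motif results.
Psmb8: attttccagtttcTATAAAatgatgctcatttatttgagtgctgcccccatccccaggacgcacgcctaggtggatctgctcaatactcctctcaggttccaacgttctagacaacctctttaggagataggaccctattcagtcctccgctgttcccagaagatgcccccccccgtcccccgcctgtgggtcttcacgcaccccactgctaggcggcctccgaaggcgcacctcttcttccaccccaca
Psmb9: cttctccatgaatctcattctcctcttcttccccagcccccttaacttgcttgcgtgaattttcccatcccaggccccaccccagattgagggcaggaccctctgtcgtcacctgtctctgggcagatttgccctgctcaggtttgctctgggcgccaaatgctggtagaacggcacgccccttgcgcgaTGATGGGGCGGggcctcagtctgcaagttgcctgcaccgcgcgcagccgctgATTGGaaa
Psmb10: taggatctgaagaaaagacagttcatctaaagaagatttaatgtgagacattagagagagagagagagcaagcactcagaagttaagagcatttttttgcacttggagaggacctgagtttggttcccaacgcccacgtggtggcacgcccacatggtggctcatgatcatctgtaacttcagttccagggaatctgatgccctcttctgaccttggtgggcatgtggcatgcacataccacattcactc
Psmb11: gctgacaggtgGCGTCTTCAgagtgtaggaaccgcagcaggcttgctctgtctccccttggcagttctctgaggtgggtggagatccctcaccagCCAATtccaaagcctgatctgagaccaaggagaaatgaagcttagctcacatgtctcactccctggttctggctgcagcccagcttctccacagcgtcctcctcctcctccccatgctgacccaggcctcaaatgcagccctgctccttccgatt
Psmb5: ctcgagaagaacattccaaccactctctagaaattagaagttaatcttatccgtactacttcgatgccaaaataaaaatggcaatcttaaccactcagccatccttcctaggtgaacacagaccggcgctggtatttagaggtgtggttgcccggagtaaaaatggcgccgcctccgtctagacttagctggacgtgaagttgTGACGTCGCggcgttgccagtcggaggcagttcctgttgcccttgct
Psmb6: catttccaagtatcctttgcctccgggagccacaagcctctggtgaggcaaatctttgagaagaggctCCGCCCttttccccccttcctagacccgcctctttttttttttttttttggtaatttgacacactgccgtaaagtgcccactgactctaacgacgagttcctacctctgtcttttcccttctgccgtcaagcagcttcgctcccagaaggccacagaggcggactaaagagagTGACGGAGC
All 250 printed bases of Psmb8, Psmb10 and Psmb11 lay inside peaks in both replicates. Of the Psmb9 stretch, which reaches the start of the divergent gene Tap1, 16.4% lay in peaks in replicate 1 and 15.2% in replicate 2. The Psmb5 stretch had 6.80% in replicate 1 and 0% in replicate 2, and the Psmb6 stretch had 0% in both. These promoters also differed in their letters, since the printed Psmb10 and Psmb11 stretches hold 3 and 4 CpG dinucleotides, against 15 in Psmb5 and 10 in Psmb6. Psmb8, with 10, and Psmb9, with 12, were not poor in CpG.

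Peak lists were deposited without read counts, so depth is unknown and the unit used throughout is coverage, the percent of a window that lies in peaks. The window was 20 kb on each side of the TSS, taken as the 5′ end of the gene record. The lists held 313431 peaks in replicate 1 and 325200 in replicate 2, and 226039 in the authors' list of replicated peaks. Of 10 embryonic stem cell markers examined, all had a replicated peak within 2 kb of the TSS, against 72.8% of all genes, and 9 lay above the median coverage of all genes. Of 8 fibroblast markers, 4 had such a peak and 3 lay above that median, Pdgfrb at 39.8%, Thy1 at 30.8% and Col1a1 at 30.2%. Col3a1, Dcn and Lum had no covered base, and the median of the fibroblast list was 3.14% ± 0.35. The 5 blood markers had a median of 7.07% ± 1.06, with Ptprc at 0.85%, and the 5 thymic epithelial markers one of 31.6% ± 0.30, with Krt5 at 0.84% and Aire at 65.5%. Each error given is the SD over the replicates (n = 2). For a list it is the SD of the 2 replicate medians, which need not centre on the median of gene means. The thymic epithelial list, for example, had replicate medians of 33.3% and 32.85%.

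Proteasome genes as a whole lay in windows richer in H3K4me1 peaks than most genes. Their median coverage was 25.8% in replicate 1 and 23.9% in replicate 2, or 25.2% ± 1.29 over the gene means, against 14% and 13.7%, or 13.9% ± 0.23, for all protein-coding genes. Of the 51 members, 34 lay above the median of all genes, against 50% of all genes by definition. Above the 75th percentile there were 16 members, against 25% of all genes, and above the 90th 3 members, against 10%. The share of members far up the scale was near this background, and the members differed from it more in how few lacked the mark. Within 2 kb of the TSS, 49 members had a replicated peak, against 72.8% of all genes. Psme2b alone had no covered base in either replicate, against 15.6% of all genes. The replicates ranked the members alike (Spearman rho = 0.97 over 51 genes, given as a description because both share the same cells), with replicate 2 higher at 30 members and replicate 1 at 20.

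**Figure D1:**
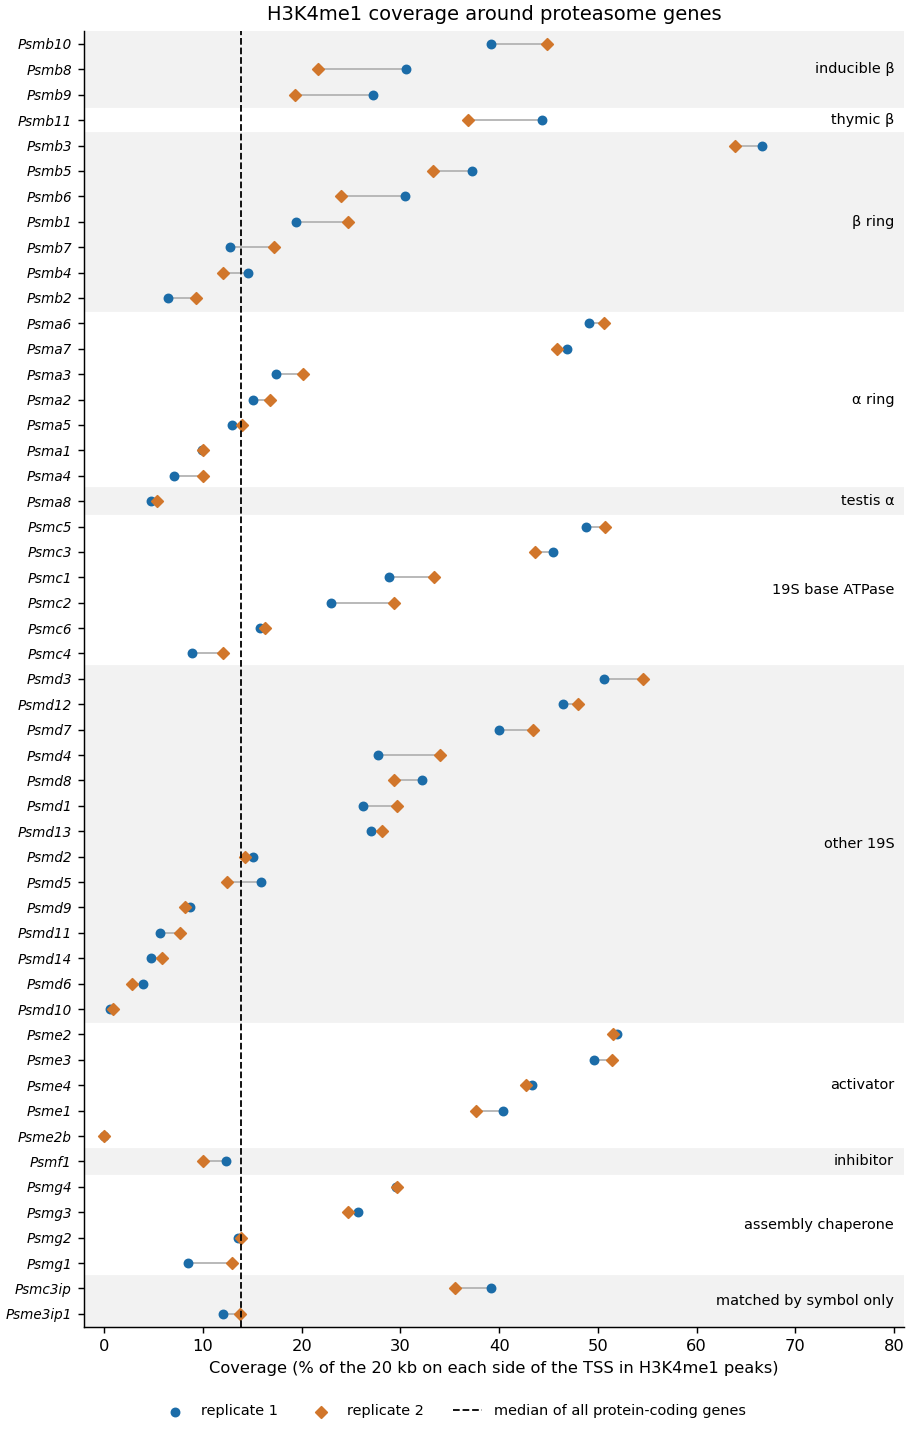
Coverage of the window of 20 kb on each side of the TSS for each of the 51 members, in percent, grouped by role with the inducible and thymic genes on top; circles are replicate 1, diamonds replicate 2, and the dashed line is the median of all protein-coding genes. Within most roles the members spread from under the line to several times above it, while all 4 inducible and thymic genes lie above it.

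The inducible genes were first examined one by one, beside the constitutive subunit that each replaces. Psmb8, which takes the place of Psmb5 and its chymotrypsin-like activity, had 30.6% coverage in replicate 1 and 21.7% in replicate 2 (26.2% ± 6.30). Psmb5 had 37.2% and 33.3% (35.3% ± 2.81). Psmb8 was lower in both replicates, by 6.64 points in replicate 1 and by 11.6 points in replicate 2, and the values of the 2 genes did not overlap. With windows of 5 kb that direction turned, with 29.6% at Psmb8 and 29.2% at Psmb5. Psmb9, which takes the place of the caspase-like subunit Psmb6, had 27.2% and 19.4% (23.3% ± 5.54). Psmb6 had 30.5% and 23.9% (27.2% ± 4.63). Psmb9 was lower within each replicate, but the values of both genes overlapped and their means differed by less than the SD of either. Psmb9 was higher than Psmb6 by 8.48 points with windows of 5 kb and by 3.16 points with windows of 10 kb.

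Psmb10 stood apart from the constitutive subunit it replaces, Psmb7, which carries the trypsin-like activity. Psmb10 had 39.1% in replicate 1 and 44.8% in replicate 2 (42% ± 4.03), and Psmb7 had 12.7% and 17.2% (15% ± 3.17). The difference was 26.4 points in replicate 1 and 27.6 points in replicate 2, several times the SD of either gene. Psmb11, the thymic counterpart of Psmb5, had 44.3% and 36.9% (40.6% ± 5.27), which was 7.09 and 3.61 points above Psmb5 in the same replicates. Replicate 2 of Psmb11 lay below replicate 1 of Psmb5, so those values overlapped. The direction held for the window of 20 kb and not for the others: Psmb11 had 26.1% against 29.2% at Psmb5 with windows of 5 kb, 29.1% against 37.3% with 10 kb and 39.96% against 46.7% with 50 kb.

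The 4 inducible and thymic genes together had a median of 34.9% in replicate 1 and 29.3% in replicate 2 (33.4% ± 3.94). The 14 constitutive core genes had 16.2% and 18.7% (17.3% ± 1.73). All 4 of the inducible and thymic genes lay above the median of all genes, as did 9 of the 14 core genes. The difference between the medians was 18.7 points in replicate 1 and 10.6 points in replicate 2, with an SD of 5.67 points. From the gene means it was 16.1 points. The core spanned 7.88% to 65.2% and the inducible and thymic genes 23.3% to 42%, so the lists overlapped, and with 1 group and genes that are no replicates there was no test between them. The difference fell to 3.59 points with windows of 5 kb, to 8.10 points with means in place of medians and to 8.83 points for Psmb8, Psmb9 and Psmb10 without Psmb11. The 3 inducible genes had 26.2% ± 6.30 and the 3 constitutive catalytic genes 27.2% ± 4.63, a difference within the SD of either. That comparison also moved with the window, with medians of 42.8% against 33.1% at 5 kb, 34.6% against 27.4% at 10 kb and 14.6% against 24.6% at 50 kb.

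Windows of these genes were not independent of each other. Psmb8 and Psmb9 start 10865 bp apart in the MHC and share 72.8% of their windows, which also hold the starts of the peptide transporter genes Tap1 and Tap2. The stretch between the starts of Psmb9 and Psmb8 was covered to 53.3% in replicate 1 and 42.7% in replicate 2, whereas the part of the Psmb9 window outside that of Psmb8 had no covered base in either. Psmb11 and Psmb5 start 7315 bp apart, head to head, and share 81.7% of their windows. The stretch between those starts was covered to 25.2% in replicate 1 and 7.60% in replicate 2. The part of the Psmb11 window outside that of Psmb5, which holds the start of Cdh24, was covered to 68.2% and 51.5%, against 29.5% and 31.7% of the part on the Psmb5 side alone. Because the shared part counts for both genes, the difference between Psmb11 and Psmb5 lay in these outer parts.

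Position of the mark relative to the start separated the inducible and thymic genes from the core more clearly than its amount. Peaks on the start were counted after seeing the data, and the contrast rests on 4 genes against 14. A replicated peak on the TSS base itself was found at 5 of the 51 members, against 18.9% of all genes. They were Psmb8, Psmb10 and Psmb11, 3 of the 4 inducible and thymic genes, and Psma6, 1 of the 14 constitutive core genes. The other was Psmd2, among the 20 genes of the regulatory particle. Outside the members such a peak was at 4 of 8 fibroblast and 2 of 5 thymic epithelial markers. It was also at 2 of 10 embryonic stem cell and 1 of 5 blood markers. The opposite arrangement, replicated peaks on both sides within 2 kb and none on the TSS base, was found at 37 members, against 43.2% of all genes. Psmb9 was the 1 inducible gene with it, and 13 of the 14 core genes had it. Peaks within 2 kb lay downstream alone at 5 members, namely Psma8, Psmd6, Psmd7, Psmd14 and Psmg3, against 7.45% of all genes, and upstream alone at Psmd10 and Psmg4, against 3.23%. Every other member with a replicated peak within 2 kb had one on or downstream of its start.

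**Figure D2:**
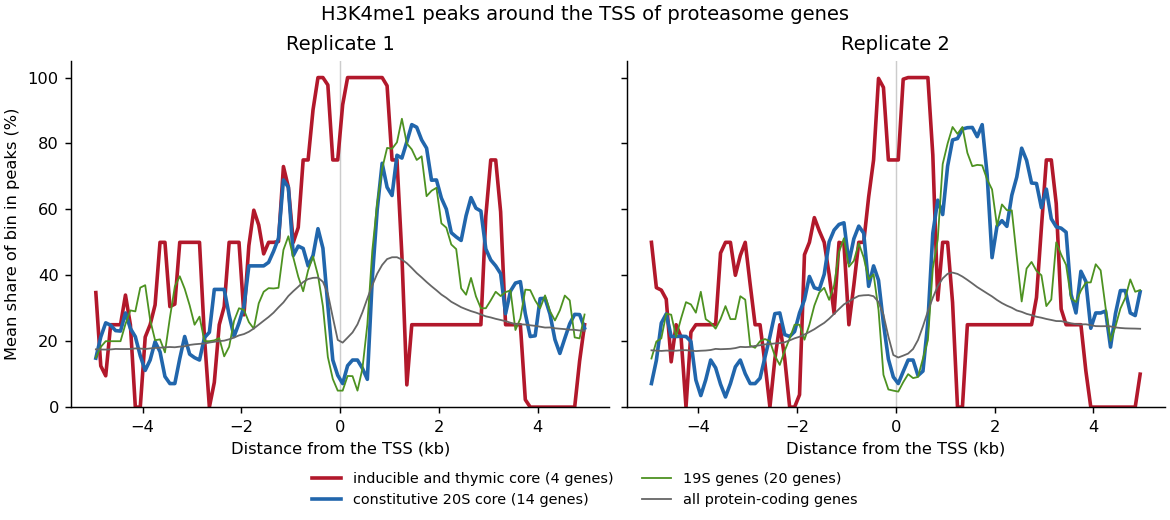
Mean share of each 100 bp bin in peaks, in percent, against distance from the TSS in kb, for 4 inducible and thymic, 14 constitutive core, 20 regulatory particle (19S) and all protein-coding genes, in replicate 1 (left) and replicate 2 (right). At the TSS the inducible and thymic genes stay at 75% or above over the central 200 bp, while the core and regulatory particle genes drop to under 10% between an upstream and a higher downstream shoulder.

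Over the central 200 bp, the inducible and thymic genes were covered to 83.4% in replicate 1 and 75% in replicate 2, against 8.39% and 8.14% in the core. The 20 regulatory particle genes had 5% and 4.85%, and all genes 20.0% and 15.4%. The core was flanked by shoulders of up to 68.9% upstream and 85.7% downstream in replicate 1, and of 55.9% and 85.7% in replicate 2. The downstream shoulder of the regulatory particle genes reached 87.5% and 85%, against 45.5% and 40.8% in all genes. Replicates placed the downstream maximum of the core at 1400 to 1500 bp and at 1700 to 1800 bp. The curves of the inducible and thymic genes rest on 4 genes, so that each gene moves a bin by up to 25 points.

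The peaks themselves show the same arrangement. At Psmb8 a replicated peak of 1747 bp ran from 887 bp upstream to 859 bp downstream of the start (chr17:34197308-34199054), with a −log10 q of 16.3 in the authors' list. At Psmb10 the peak on the start (chr8:105937166-105938887) ran from 495 bp upstream to 1226 bp downstream, with a −log10 q of 40.8. It was followed by a peak at chr8:105935040-105937032 whose −log10 q of 76.6 was at the 99.5th percentile of the replicated list. Between them they left little of the short gene unmarked: 94.7% of the Psmb10 gene body was in peaks in replicate 1 and 90.7% in replicate 2. At Psmb11 the peak on the start (chr14:54624501-54626589) was 2089 bp wide, from 809 bp upstream to 1279 bp downstream, with a −log10 q of 26.6.

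At Psmb9 the nearest peaks ended 192 bp upstream and began 44 bp downstream of the start. The upstream peak (chr17:34187522-34188622) covered the start of Tap1, which is transcribed away from Psmb9 from a site 226 bp off. At Psmb5 the nearest upstream peak, 237 bp wide, ended 312 bp from the start, and the first downstream peak began 1371 bp inside the gene. The 2 kb upstream of Psmb5 were covered to 23.5% in replicate 1 and 0% in replicate 2. Psmb6 had a gap from 257 bp upstream to 613 bp downstream, and Psmb7 one from 267 bp upstream to 575 bp downstream. None of the 3 constitutive catalytic genes had a covered base in the central 200 bp in either replicate.

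**Figure D3:**
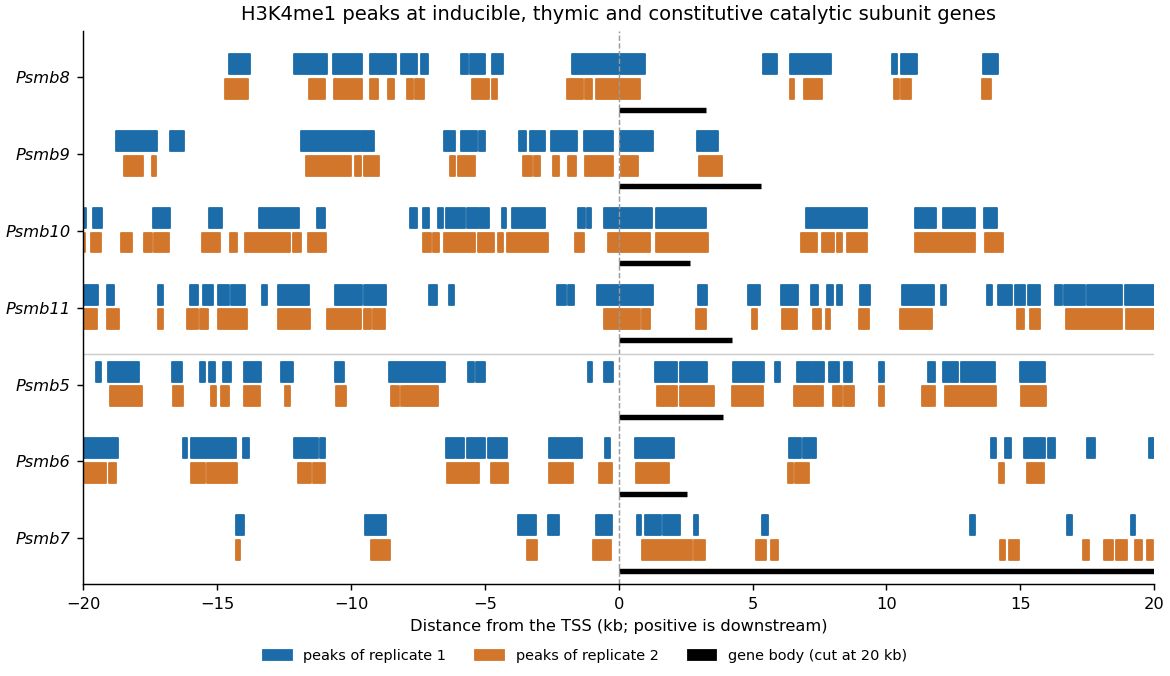
Peaks of replicate 1 (upper bars) and replicate 2 (lower bars) in the 20 kb on each side of the TSS, by distance in kb with downstream to the right, for the inducible and thymic genes (upper 4) and the constitutive catalytic genes (lower 3); black lines are gene bodies. Bars cross the dashed line of the TSS at Psmb8, Psmb10 and Psmb11 in both replicates, and not at Psmb5, Psmb6 and Psmb7.

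Psma6, an alpha-ring gene, was the exception in the core: at its recorded start the central 200 bp were covered to 100% in both replicates, within a replicated peak of 4952 bp. RefSeq lists a second start 14603 bp downstream. At that start no replicated peak lay on the TSS base, the central 200 bp were at 0% in both replicates, and the 2 kb upstream and downstream were covered to 74.9% and 64.1% in replicate 1. The recorded start had an observed to expected CpG ratio of 0.19 and the second start one of 0.70. Psmd2, a scaffold subunit of the regulatory particle, likewise had no peak on its RefSeq promoter start, 530 bp from the recorded one. With the promoter starts nearest to each record, the count on the TSS base was 4 of 51 members, against 16.4% of all genes.

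The CpG ratio of the promoter, computed over 300 bases from 250 upstream to 50 downstream, differed between the lists but did not follow the peak gene by gene. Promoter sequences were at hand for 43 members. The median ratio was 0.36 for the inducible and thymic genes, against 0.80 for the 11 core genes and 0.80 for 17 regulatory particle genes. Over all 17492 promoters of the table it was 0.58. Within the inducible and thymic genes the ratio was 0.19 at Psmb10 and 0.17 at Psmb11. At Psmb8 it was 0.52, and at Psmb9, which had no peak on the TSS base, 0.60. Of all genes in the lowest tertile of CpG ratio, 19.3% had a replicated peak on the TSS base, against 25.2% in the middle and 9.69% in the highest tertile. The lowest tertile held 4 members, Psmb10, Psmb11, Psma6 and Psme2b, of which the first 3 had the peak. The middle tertile held 17 members with 1 such gene, Psmb8, and the highest 22 with 1, Psmd2. In these counts the peak was called on the recorded start and the ratio taken around the table's start. For Psmd2 the starts are 530 bp apart, and no replicated peak lay on the table's start. The part of base composition in the position of the mark was not tested.

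Motifs were sought on both strands of the same 300 bases. TGANNNNGC is a loose form of the core of the antioxidant response element, through which Nfe2l1 and Nfe2l2 are known to act. It was in 3 of 4 inducible and thymic promoters and 8 of 11 core promoters, against 41.7% of all promoters. Among regulatory particle promoters it was in 7 of 17, and over the members in 24 of 43. In Psmb5 it reads TGACGTCGC, 47 to 39 bases upstream of the start, and in Psmb6 TGACGGAGC, 9 to 1 bases upstream of the table's start, which is downstream of the recorded one. In Psmb9 it reads TGATGGGGC and overlaps a GC box, GGGCGG, in the printed stretch. CCAAT, the NF-Y box, was in 2 of 4 inducible and thymic and 6 of 11 core promoters, against 39.2% of all. It was in 5 of 17 regulatory particle promoters and in 16 of 43 member promoters. A core of interferon response elements (a pair of GAAA runs with 2 free letters between them) was in 5 of 43 member promoters and in none of the 4 inducible and thymic ones, against 3.40% of all. That says only that these letters are not in these windows. CCGGAAG, an ETS core, was in 9 of 17 regulatory particle promoters and 0 of 11 core promoters, against 11.9% of all. GGGCGG was in 24 of 43 members, against 46.3% of all, TATAAA in 4, against 13.3%, and the palindromic site of the factor NRF1 in 2, against 1.33%. The Psmb10 promoter held none of the 7 motifs, and a match describes letters and not binding.

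In the constitutive beta ring, coverage was highest at Psmb3 and lowest at Psmb2, both structural subunits without a cutting site. Psmb3 had 66.6% in replicate 1 and 63.9% in replicate 2, the highest of all members and at the 96.9th percentile of all genes, and Psmb2 had 6.45% and 9.31%. The Psmb3 window held the widest single peak of all members, 8548 bp, at 5024 bp upstream, on the side of the Polycomb gene Pcgf2, whose divergent start is 1000 bp away. The beta ring had a median of 22% ± 3.22 and the alpha ring one of 15.9% ± 1.22. In the alpha ring, which gates entry to the core, Psma6 was highest with 49.1% and 50.6%, and Psma4 lowest with 7.06% and 10.0%. Psma8, the alpha subunit of spermatogenic cells, had 4.79% and 5.34%, and a peak over its central 200 bp in replicate 1 but not in replicate 2.

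The regulatory particle recognises and unfolds substrates. Its base ATPases had a median of 28.6% ± 3.90 and its other genes one of 21.1% ± 0.15. All 20 had a replicated peak within 2 kb and 14 of 20 lay above the median of all genes. Among the ATPases, Psmc5 was highest with 48.8% in replicate 1 and 50.7% in replicate 2, and Psmc4 lowest with 8.84% and 12%. Among the others, the lid subunit Psmd3 was highest with 50.6% and 54.6%. Psmd10, or gankyrin, an assembly factor of the base and the one member on the X chromosome, was lowest with 0.61% and 0.88%, from a single replicated peak of 281 bp that ended 515 bp upstream of its start. The lid gene Psmd6 also had 1 peak in its window and 3.36% ± 0.76. Wide peaks lay in the windows of the lid genes Psmd13, 6257 bp at 16514 bp downstream, and Psmd12, 5791 bp beginning 750 bp downstream.

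Activators open the gate of the core, and 4 of the 5 were among the well-covered members. Psme2, a subunit of the interferon-inducible activator PA28, had 52.0% in replicate 1 and 51.5% in replicate 2. Its partner Psme1, which starts 12607 bp away and shares 68.5% of its window, had 40.4% and 37.7%, and its central 200 bp were covered to 54% and 14%. The nuclear activators Psme3 and Psme4 had 50.6% ± 1.29 and 43.0% ± 0.40. Psme1 and Psme2, which are induced with the immunoproteasome, had the gap at their starts in the replicated list. For Psme1 that depended on the list, since a replicated peak lay 20 bp from its start and a peak of replicate 1 alone lay on it. Psme2b was at 0% in both replicates, and only 12.5% of 40 evenly spaced 32-base words of its mm9 window occur once in the genome, against a median of 90% over the members. The part of mappability in that value was not tested.

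The inhibitor gene Psmf1 (PI31) had 12.4% in replicate 1 and 10.0% in replicate 2, and no replicated peak within 2 kb of its recorded start. RefSeq's promoter lies 2889 bp inside the record, and from there 65.2% of the 2 kb downstream were covered in replicate 1 and 64.3% in replicate 2. A replicated peak lay within 2 kb of that start, so the call at Psmf1 depends on which start is used. The assembly chaperones, which pair alpha subunits during core assembly, ranged from Psmg1, with 8.45% and 13.0%, to Psmg4, with 29.5% and 29.7%. Of the genes matched by symbol only, Psmc3ip had 37.4% ± 2.59 and Psme3ip1 12.9% ± 1.20, and leaving both out left the median of the members at 25.2%.

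Crowding by other genes moved with coverage among the members. The 9 members with 3 or more other protein-coding starts in their window had a median of 39.0% ± 2.48, the 21 with 1 or 2 one of 26.2% ± 1.72 and the 21 with none one of 13.3% ± 0.18. All protein-coding genes followed the same order, with 40.2% ± 2.42, 19.9% ± 0.50 and 8.44% ± 0.31. At 3 or more neighbours the median of the members thus did not exceed that of all genes, and with fewer it was higher. The SD of replicate medians does not measure how a median varies with the genes listed. Members with no other start spanned 3.36% to 49.9%, and the difference was not tested. Divergent partners within 1 kb were found at 9 members, against 6.91% of all genes: Psmb9 with Tap1, Psmb3 with Pcgf2, Psma2 with Mrpl32, Psma7 with Ss18l1, Psmc2 with Dnajc2, Psmc5 with Ftsj3, Psmd13 with Sirt3, Psme2 with Rnf31 and Psmg2 with Cep76. All 9 had the gap flanked on both sides, as did 1257 of the 1484 protein-coding genes with such a partner. Their median was 27.6% ± 1.52, against 20.4% ± 1.78 for the 42 members without a partner, and over all genes these medians were 25.1% ± 1.06 and 12.9% ± 0.32. The median number of other starts was 3 for the inducible and thymic genes, against 0.50 for the core, and its part in the difference of their medians was not tested.

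**Figure D4:**
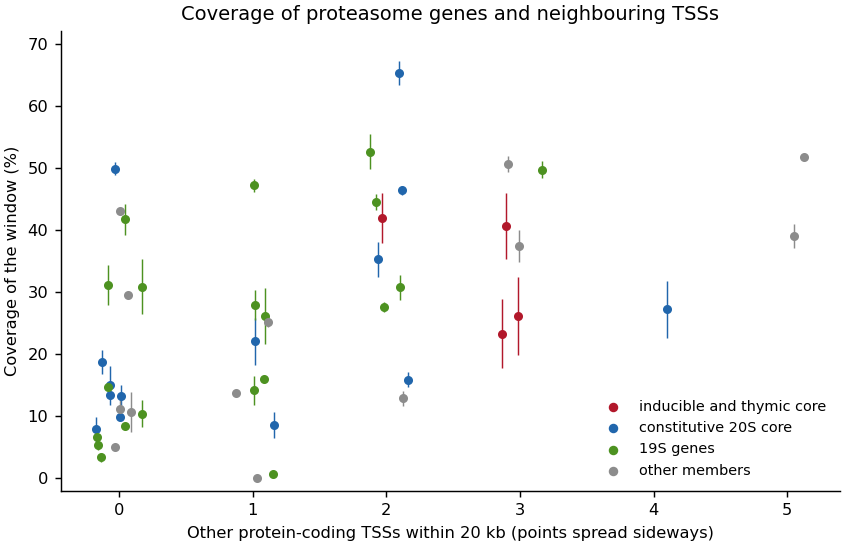
Coverage of the window in percent (mean and SD of 2 replicates) against the number of other protein-coding starts within 20 kb, for each of the 51 members, coloured by role. Members with several neighbouring starts sit higher, and the 4 inducible and thymic genes have 2 or 3 neighbours each, while Psma6 and Psme4 reach 49.9% and 43.0% with none.

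Genes that work with the proteasome were measured in the same way. Of 7 measured further subunits and partners the median was 10.5% ± 0.48, with 3 above the median of all genes. The assembly factor Pomp was highest with 53.0% ± 7.36, and the adaptor Ecpas lowest with 3.97% ± 1.61 and no replicated peak within 2 kb. The regulators of proteasome genes had a median of 46.7% ± 2.62, from 64.8% ± 1.30 at the transcription factor Nfe2l1 to 2.09% ± 0.27 at Ngly1, the glycanase that processes it. Shuttle factors and the unfoldase Vcp had a median of 38.1% ± 2.09, from 83.3% ± 1.90 at Ubqln4 to 2.21% ± 1.69 at the X-linked Ubqln2.

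A further pair of lists belongs to the setting in which the immunoproteasome is used. The 10 antigen presentation genes had a median of 23.7% ± 5.04, with 7 above the median of all genes. A replicated peak lay on the TSS base at 4 of them, against 18.9% of all genes. That count rests on only 10 genes and was made after seeing the data. This list is not separate from the members, because Tap1 and Tap2 start within the windows of Psmb8 and Psmb9. Tapbp, the tapasin gene, was highest with 70.8% ± 3.27, and the peptidase gene Erap1 lowest with 2.16% ± 0.46. Of 7 measured interferon regulators the median was 21.7% ± 3.90, with 5 above the median of all genes. A replicated peak lay on the TSS base at 0 of these 7, too few genes to set apart from that share of all genes. Irf1, a factor known to drive the inducible subunit genes, was highest with 79.0% ± 1.06, and Irf2 lowest with 3.94% ± 1.36.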

How the data were processed

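H3K4me1 ChIP-seq was analysed in 2 biological replicates of E14TG2a.4 cells, numbered as in the labels. Per the deposited read-me lists, the authors supplied mm10 narrowPeak lists of each replicate, of both pooled and of replicated peaks, and mm9 broadPeak lists. Aligner and caller are not given in the sources here. The mm10 lists as deposited give each peak a signal value and a −log10 p and −log10 q. In the mm9 lists, as deposited, these are a p-value and a q-value beside the signal. All are the authors' own and were used only to describe, rank or filter peaks within a list. Without read counts the depth is unknown, and intervals or floors that need it were not computed.

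Gene records came from the RefSeq table of GRCm38.p6. Strands came from the RefSeq promoter table for 17492 genes and from GENCODE vM1 by symbol for 3606 and by synonym for 388. The 401 of 21887 genes without a strand were not analysed here. Where both sources named a strand, 99.7% of 14609 genes had the same one. Coverage, per replicate, was the share in percent of a window of 20 kb to either side of the record's 5′ end that lay in peaks; list values are medians over gene means, with the SD of the 2 replicate medians. A single group allows no test between groups. The members and lists were chosen with earlier results of these data known, and the count of peaks on the TSS base was added after seeing the data. Named genes were Psmb5 to Psmb11, the highest and lowest of each role and related list, members without a promoter peak or covered base, on X or with shared windows, and the 3 with the widest peaks; markers were named after their values were seen. A further related list is not reported here. Others, such as the exceptions to the position of the mark, were named after their values were seen. Alternatives covered the window, the list, the threshold, the start and each replicate left out. Python 3.11.15, numpy 2.4.6, pandas 2.3.3 and matplotlib 3.10.9 were used, and the coverage code was tested on simulated intervals. No coordinate was converted between builds.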

Additional observations from a re-analysis of the deposited data

How the results depend on the processing

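Under every alternative in which both lists were compared, the inducible and thymic genes kept a higher median than the core. Leaving out members that share windows removes Psmb8, Psmb9 and Psmb11, so the lists were not compared there. The differences at 5 kb, at 50 kb and with the 50000 strongest peaks were below the SD of 5.67 points found at 20 kb. Single genes turned direction with the window, in differences examined after seeing the data. Psmb8 minus Psmb5 was 0.39 points at 5 kb, Psmb9 minus Psmb6 was 8.48 at 5 kb and 3.16 at 10 kb, and Psmb11 minus Psmb5 was -3.08, -8.20 and -6.79 at 5, 10 and 50 kb, against -9.11, -3.92 and 5.35 points at 20 kb. Psmb10 exceeded Psmb7 under all alternatives. Windows of 5, 10 and 50 kb gave members 33.1%, 27.4% and 23.5%, the core 32.6%, 24.5% and 21.6%, and differences of 3.59, 8.04 and 5.07 points; the inducible and thymic median was 26.6% at 50 kb. The replicated list gave members 26.7% and the core 20.3%, and the pooled list 29.6% for members, 39.4% for inducible and thymic genes and 23.4% for the core. The mm9 lists gave 38.5%, 49.8% and 32.9% in that order, against 24.5% for all genes on mm9. The 50000 strongest peaks gave 5.59%, 9.42% and 5.52%, a difference of 3.90 points and 30 members with a promoter peak, with 2.53% for all genes. Means over genes gave the core 24.9% and a difference of 8.10 points. Psmb8, Psmb9 and Psmb10 alone gave 26.2% and 8.83 points. Without members that share windows the median of the members was 18.7%. Leaving out 1 replicate each gave 29.3% to 34.9% for the inducible and thymic median, with the lower value without replicate 1, and differences of 10.6 to 18.7 points. The count of inducible and thymic genes with a peak on the TSS base was 3 in every alternative except the 50000 strongest peaks, which left 2 by losing Psmb8, and that of the core stayed at 1. No paired analysis was possible because the samples form 1 group. Peak lists without counts limit the precision: the absence of a peak on the start of Psmb5 or Psmd10 is the absence of a call, not of the mark, and gaps at starts depend on the authors' threshold.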
